A study of Mus musculus with 10 samples.

Results

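Fatty acid oxidation and its regulators were examined in whole kidney of old mice with one activating Rragc allele. The genes were chosen by symbol from a list of 38 that spans uptake, activation, the carnitine shuttle, mitochondrial and peroxisomal beta-oxidation, electron transfer and the nuclear receptors and coactivators of the pathway. The table held 37 of the 38 among its 13299 genes, and all 37 passed a filter on low values that 13236 genes passed. Expression of Fabp1, the liver-type fatty acid binding protein, was not analysed here.

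The series compared 5 Rragc S74N/+ kidneys with 5 Rragc +/+ kidneys, each labelled as whole tissue from a mouse aged 1.5 years. Rragc encodes RagC, a small GTPase that relays nutrient sufficiency to the kinase complex mTORC1. Rragc S74N/+ mice are heterozygous for a knock-in made by Cas9 editing of the endogenous gene, which carries the serine-to-asparagine change together with silent changes, in every cell of the body and throughout life. Rragc +/+ mice are wild type at the locus, and per the study's methods mice ate standard chow. The labels give no sex and no feeding state for these kidneys. They do not say in so many words that each sample came from a separate mouse, but the paper counts 5 mice per genotype for this comparison. The p-values measure the spread between these samples.

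Proximal tubule cells of the kidney draw most of their energy from fatty acids. A fatty acid enters through CD36 or a transport protein, is carried by a binding protein, is joined to coenzyme A and crosses into mitochondria as an acylcarnitine. There it is shortened in rounds of dehydrogenation, hydration, dehydrogenation and thiolysis, and very long and branched chains are first shortened in peroxisomes. PPAR alpha, a nuclear receptor that pairs with RXR alpha and is activated by fatty acids, drives many of these genes together with the coactivator PGC-1 alpha and the receptor ERR alpha. mTORC1 is a known regulator of this programme in other tissues.

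Libraries were read from the 3′ end of each mRNA, and the deposited values were normalized counts, that is read counts divided by a size factor per library. In the 8 libraries whose reads could be recovered, depth ran from 4488493 to 5797251 reads. Across all 10 libraries, genes of the mitochondrial genome took 33.8% to 38% of normalized counts. Some libraries carried transcripts of fat cells. The sum of 8 adipocyte markers (Adipoq, Plin1, Lep, Cidec, Fabp4, Retn, Cfd and Car3) was 9753 normalized counts in S74N/+ replicate 1 and 614 to 1657 in the other 4 S74N/+ kidneys. Among +/+ kidneys it was 2420 in replicate 3 and 293 to 1127 in the others. Adipoq, a defining fat cell gene, was at 365.6 normalized counts in S74N/+ replicate 1 and 178.5 in +/+ replicate 3, against 0 to 68.24 in the other 8. Results on the pathway are therefore also given without these 2 libraries, an alternative added after the data were seen. The label of whole kidney was checked against 15 markers of the proximal tubule, all of them in the table. Their summed level was 134063 to 181749 normalized counts in +/+ and 140454 to 177403 in S74N/+ kidneys, but most of it was Kap alone (78675 to 115404 and 87248 to 117408, named after its values were seen), so the sum says little of the others. Lrp2, the receptor megalin, was at 4756 to 6410 normalized counts in +/+ and 5141 to 8754 in S74N/+ kidneys. The Y-linked genes Ddx3y, Eif2s3y, Kdm5d and Uty were detected in every library, with a summed level of 369 to 505 normalized counts.

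The first question was how many genes of the pathway differed between the genotypes. At an adjusted p under 0.05 (limma on log2 of the normalized count plus 1, adjusted over all genes), 4 of 37 differed (10.8%), against 6.03% of all tested genes. Cd36 and Acadm were higher in S74N/+ kidneys, 2 of 37 (5.41%) against 3.45% of all genes. Fabp3 and Ppargc1a were lower, also 2 of 37 (5.41%), against 2.58% of all genes. With so few genes behind each share, nothing particular to the pathway was read from them. The median log2 fold change was 0.11 over the 37 genes, with 23 above zero and 14 below, and -0.01 over all tested genes, with 6451 above zero and 6785 below.

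**Figure D1:**
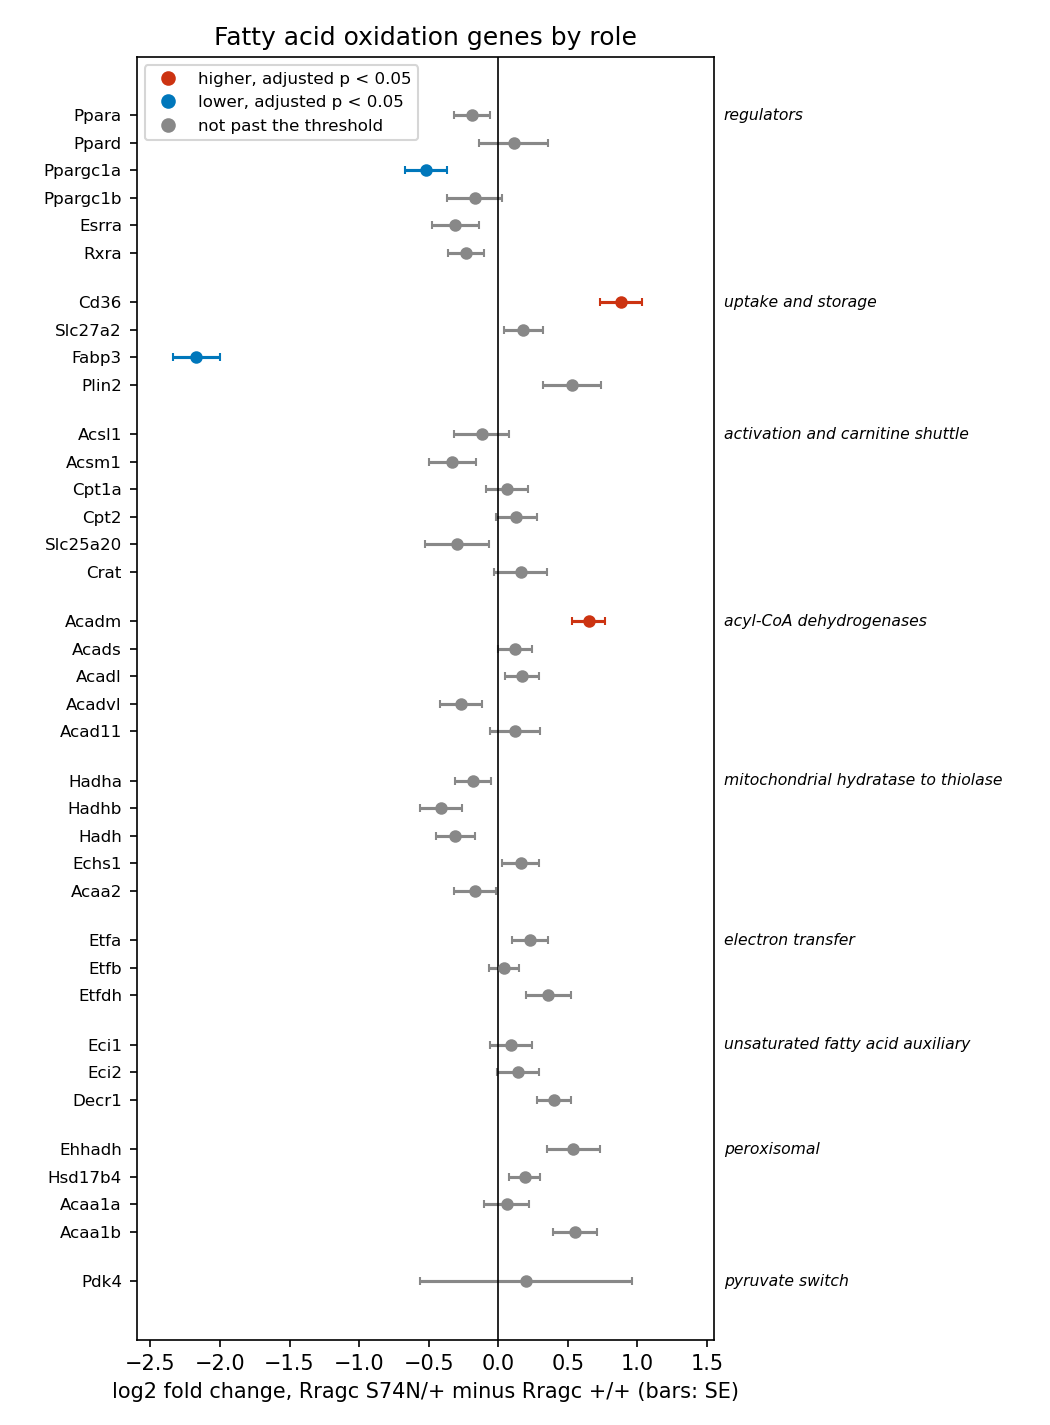
Log2 fold change (S74N/+ minus +/+) of the 37 fatty acid oxidation genes, grouped by role, with bars for the standard error of the limma fit on 5 kidneys per genotype. Fabp3 lies far to the left at -2.17, Cd36 at 0.88 and Acadm at 0.65 lie to the right, and the rest lie between -0.52 and 0.55.

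Values of the 2 groups did not overlap in 5 of 37 genes (13.5%), the 4 above and Decr1, against 8.16% of all tested genes. Count models on the recovered reads of 8 kidneys gave slightly more calls. The edgeR quasi-likelihood test called 5 of 37 (13.5%, against 6.43% of all genes), which added Decr1. DESeq2 called 6 of 37 (16.2%, against 10.6% of all genes), which added Decr1 and Acaa1b. At an unadjusted p under 0.05 (limma), 11 of 37 genes passed (29.7%), against 25.4% of all genes, 7 of which passed before adjustment alone.

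Regulators come first in the pathway. Ppargc1a, which encodes PGC-1 alpha, a coactivator of mitochondrial biogenesis and fatty acid oxidation, was lower in S74N/+ kidneys. It had 320, 293.4, 336, 304.8 and 263.7 normalized counts in +/+ replicates 1 to 5 and 151.1, 190, 237.9, 238.3 and 254.5 in S74N/+ replicates 1 to 5. Every S74N/+ kidney was thus below every +/+ kidney, with the highest S74N/+ value only just under the lowest +/+ value. The mean was 303.55 ± 27.47 (SD, n = 5) in +/+ and 214.37 ± 42.85 (SD, n = 5) in S74N/+ kidneys, a 1.42-fold difference, and the log2 fold change was -0.52 ± 0.15 (SE, limma adjusted p = 0.0472). In whole tissue, fewer cells of a type and less RNA per cell cannot be told apart.

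This was the weakest of the 4 calls. Leaving out 1 library at a time kept it in 2 of 10 fits, without +/+ replicate 5 and without S74N/+ replicate 3, with limma adjusted p between 0.0449 and 0.10. It was lost with libraries scaled to equal totals (log2 fold change -0.44, adjusted p = 0.0766) or to equal totals without the mitochondrial genome (adjusted p = 0.0637), in limma without the variance trend (adjusted p = 0.10) and without the 2 libraries richest in fat cell transcripts (-0.36, adjusted p = 0.10). edgeR gave an adjusted p of 0.0488 and DESeq2 0.0214. The fold change stayed below zero in all of these fits.

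None of the other 5 regulators passed the test. Ppara, which encodes PPAR alpha, had a mean of 701.32 ± 72.71 normalized counts (SD, n = 5) in +/+ and 621.99 ± 124.9 (SD, n = 5) in S74N/+ kidneys, with a log2 fold change of -0.19 ± 0.13 (SE by limma, adjusted p = 0.39). Its partner Rxra was at 252.23 ± 35.5 and 213.77 ± 21.55 normalized counts (SD, n = 5 each; log2 fold change -0.23 ± 0.13, limma adjusted p = 0.27). Esrra, which encodes ERR alpha, was at 115.13 ± 24.65 and 92.076 ± 13.24 (SD, n = 5 each; -0.31 ± 0.17, adjusted p = 0.26). Ppargc1b, the coactivator PGC-1 beta, was at 143.82 ± 13.6 and 133.5 ± 40.84 (SD, n = 5 each; -0.17 ± 0.20, adjusted p = 0.65). Ppard, the delta receptor of the same family, was at 78.211 ± 16.52 and 88.835 ± 37.03 (SD, n = 5 each; 0.11 ± 0.25, adjusted p = 0.83), and its log2 fold change turned to -0.20 without the 2 libraries richest in fat cell transcripts. Of the 6 regulators, 5 had fold changes below zero and 1 above, with a median of -0.21.

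Uptake and intracellular transport held the largest changes. Fabp3, the heart-type fatty acid binding protein that ferries fatty acids through the cytosol, was 4.48-fold lower in S74N/+ kidneys. It had 259.5, 313.1, 297.6, 250.6 and 234.8 normalized counts in +/+ replicates 1 to 5 and 45.69, 75.6, 76.98, 50.92 and 53.44 in S74N/+ replicates 1 to 5. The groups were far apart, and the highest S74N/+ kidney stood well under the lowest +/+ kidney. Means were 271.14 ± 32.93 and 60.527 ± 14.67 (SD, n = 5 each), and the log2 fold change was -2.17 ± 0.17 (SE, limma adjusted p = 2.21e-06). The call held in 10 of 10 fits that left out 1 library, with adjusted p from 5.57e-08 to 3.12e-05, in edgeR (adjusted p = 1.73e-05) and DESeq2 (8.89e-27), and without the 2 libraries richest in fat cell transcripts (log2 fold change -2.04).

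The fall of Fabp3 went with a fall of some markers of the thick ascending limb and the distal convoluted tubule. Slc12a3, the thiazide-sensitive sodium chloride cotransporter of the distal convoluted tubule, had 4282, 4313, 3802, 4321 and 3559 normalized counts in +/+ and 900.8, 826.8, 995.8, 1410 and 1257 in S74N/+ replicates 1 to 5 (log2 fold change -1.94 ± 0.14, SE, limma adjusted p = 1.61e-06). Umod, uromodulin of the thick ascending limb, was lower as well (-1.55 ± 0.23, adjusted p = 0.0013), whereas Slc12a1, the cotransporter of the same segment, gave 0.04 ± 0.18 (adjusted p = 0.91). Over the whole list of 8 markers of other nephron segments, 3 fell and none rose by this test, where 2.58% of all genes were lower. The fall was not shared by the list, whose median log2 fold change was 0.01 with 4 genes above zero and 4 below. Its summed level, in which Umod and Slc12a3 weigh heavily, was 14204 to 16808 normalized counts in +/+ and 6917 to 11063 in S74N/+ kidneys. The part of this in the fall of Fabp3 was not tested.

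Cd36 was 1.83-fold higher. CD36 is a scavenger receptor that takes up long-chain fatty acids and is also made by fat cells, endothelium and macrophages. Its values were 566.1, 524.3, 758.3, 534.5 and 800.9 normalized counts in +/+ replicates 1 to 5 and 1431, 930.5, 1080, 1176 and 1204 in S74N/+ replicates 1 to 5. Every S74N/+ kidney was above every +/+ kidney. Means were 636.82 ± 132.1 and 1164.4 ± 183.6 (SD, n = 5 each) and the log2 fold change was 0.88 ± 0.15 (SE, limma adjusted p = 0.00329). It passed in 10 of 10 fits that left out 1 library (adjusted p from 0.000951 to 0.0152), in edgeR (adjusted p = 0.00484) and in DESeq2 (3.51e-06).

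Among Cd36 values, S74N/+ replicate 1 was the highest, and the same kidney was richest in fat cell transcripts. Without it and +/+ replicate 3 the log2 fold change was 0.87 (limma adjusted p = 0.000487), as large as with them. Some leukocyte markers also moved with the genotype. The summed level of 8 leukocyte markers was 381 to 470 normalized counts in +/+ and 567 to 872 in S74N/+ kidneys. Ptprc, the pan-leukocyte antigen CD45, was at a log2 fold change of 1.20 ± 0.18 (SE by limma, adjusted p = 0.00148). Of the 8, 3 rose in limma (Ptprc, C1qb and Lyz2), where 3.45% of all genes were higher, and 5 did not pass, among them Adgre1 and Cd68. None of 7 endothelial markers passed in limma, edgeR or DESeq2 (2 at an unadjusted limma p under 0.05), and their summed level was 1506 to 1742 against 1528 to 2062 normalized counts. The part of leukocytes in the rise of Cd36 was not tested.

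The remaining uptake and storage genes did not pass. Slc27a2, a very long-chain acyl-CoA synthetase and transporter of the proximal tubule, was at 4906.1 ± 443.9 and 5648.6 ± 1184 normalized counts (SD, n = 5 each; log2 fold change 0.18 ± 0.14, limma adjusted p = 0.44). Plin2, the coat protein of lipid droplets, had 273, 208.1, 404.1, 372.9 and 425.8 normalized counts in +/+ and 784.3, 394.5, 390.9, 423.7 and 441.1 in S74N/+ replicates 1 to 5. One kidney, S74N/+ replicate 1, was thus far above the rest, while the other 4 S74N/+ values lay within or close above the +/+ range. The log2 fold change of Plin2 was 0.53 ± 0.21 (SE, adjusted p = 0.14), and 0.42 (adjusted p = 0.14) without the 2 libraries richest in fat cell transcripts.

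**Figure D2:**
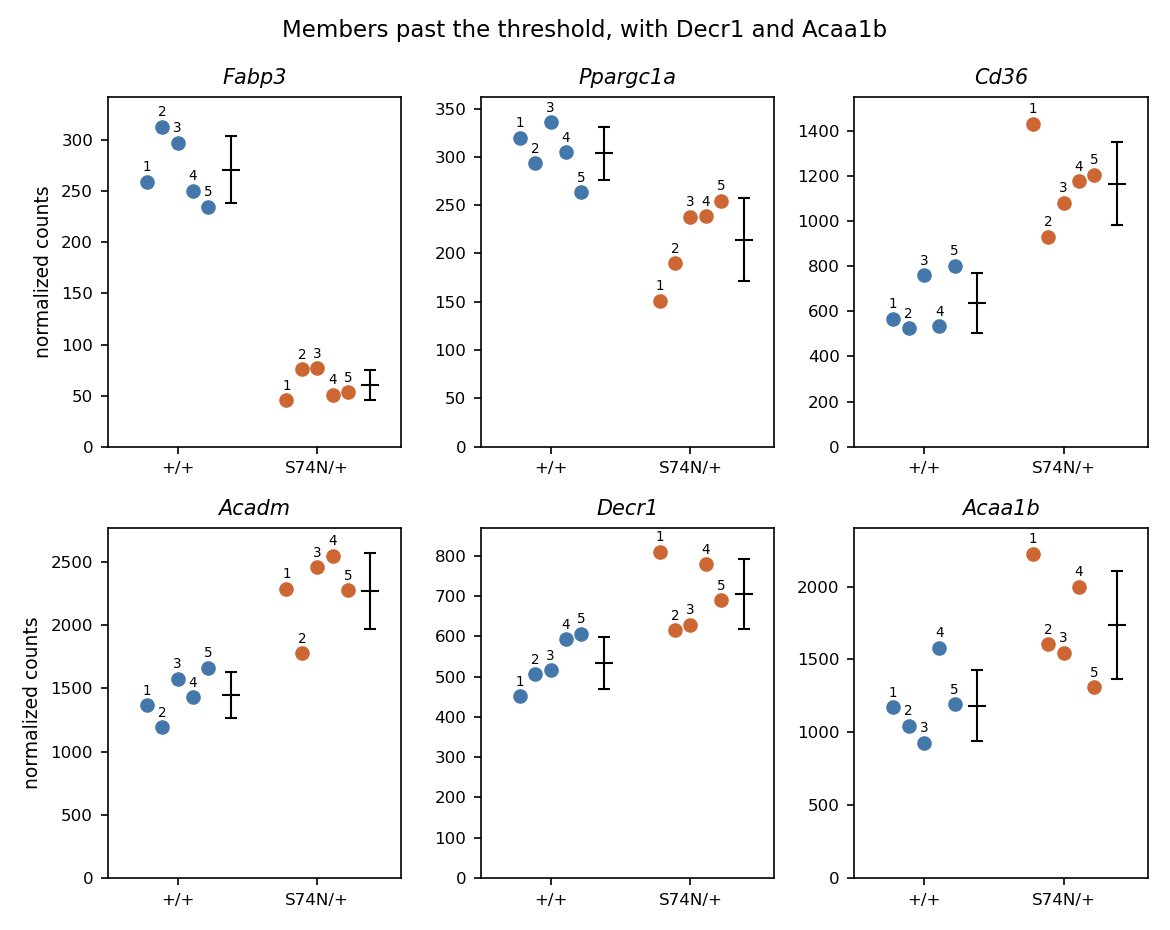
Normalized counts per kidney (vertical axis from 0) of Fabp3, Ppargc1a, Cd36, Acadm, Decr1 and Acaa1b in +/+ (blue) and S74N/+ (orange), with the replicate number above each point and the mean and SD beside each group. The groups are apart for the first 5 genes, widely so for Fabp3, and for Acaa1b S74N/+ replicates 3 and 5 lie below the highest +/+ kidney.

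Activation and the carnitine shuttle held 0 of 6 genes past the threshold in limma, edgeR and DESeq2, and 0 at an unadjusted limma p under 0.05. Cpt1a, the outer membrane carnitine palmitoyltransferase that commits long-chain fatty acids to oxidation, was at 947.41 ± 173.5 normalized counts in +/+ and 990.25 ± 172.4 in S74N/+ kidneys (SD, n = 5 each), with a log2 fold change of 0.06 ± 0.15 (SE by limma, adjusted p = 0.82). Cpt2, its inner membrane counterpart, was at 260.44 ± 10.9 and 291.34 ± 66.93 (SD, n = 5 each; 0.13 ± 0.15, adjusted p = 0.64). S74N/+ kidneys were more scattered for this gene, at 192.1 to 378.9, than +/+ kidneys at 247.7 to 274.2. Fold changes of the carrier Slc25a20, the acyl-CoA synthetases Acsl1 and Acsm1 and carnitine acetyltransferase Crat lay between -0.33 and 0.16. The 6 genes had a median of -0.03, with 3 above zero and 3 below.

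Among the acyl-CoA dehydrogenases, which take the first step of each round of beta-oxidation and differ in the chain length they accept, Acadm rose 1.57-fold. Acadm encodes the medium-chain enzyme. It had 1366, 1193, 1575, 1429 and 1665 normalized counts in +/+ replicates 1 to 5 and 2290, 1777, 2461, 2551 and 2275 in S74N/+ replicates 1 to 5. The groups did not overlap, the closest pair being +/+ replicate 5 and S74N/+ replicate 2. Means were 1445.7 ± 184 and 2271 ± 299.8 (SD, n = 5 each), and the log2 fold change was 0.65 ± 0.12 (SE, limma adjusted p = 0.00796). The call held in 10 of 10 fits that left out 1 library (adjusted p from 0.00268 to 0.0283), in edgeR (0.0165) and DESeq2 (0.000524), and without the 2 libraries richest in fat cell transcripts (log2 fold change 0.68, adjusted p = 0.00223).

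The other 4 dehydrogenases did not pass. Fold changes on the log2 scale were 0.12 ± 0.12 for the short-chain enzyme Acads, 0.17 ± 0.12 for the long-chain enzyme Acadl, -0.27 ± 0.15 for the very long-chain enzyme Acadvl and 0.12 ± 0.18 for Acad11 (SE, limma adjusted p from 0.27 to 0.74). Whether Acadm differed from them in its response was not tested.

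Short stretches of the promoters of Cd36 and Acadm, the genes that rose, show a motif that nuclear receptors of the PPAR and RXR kind can contact. Promoters of 300 bases (250 before and 50 after the start site) came from RefSeq on build GRCm38.p6 and were matched by symbol, with 35 promoters for 33 genes of the list. The capitals mark the nuclear receptor element AGGTCA, which lies on the opposite strand in both and so reads TGACCT in the direction of the gene.
Acadm, chr3:153944834-153944893, minus strand, bases -250 to -191 from the start site: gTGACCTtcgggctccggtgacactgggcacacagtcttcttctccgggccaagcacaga
Cd36, chr5:17836087-17836146, minus strand, bases -250 to -191 from the start site: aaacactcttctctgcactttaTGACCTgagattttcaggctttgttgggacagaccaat
This element was searched on both strands and was held by 10 of the 33 genes in any of their promoters. It was held by 16.3% of all 32851 promoters. The first count is by gene and the second by promoter, so they are not quite like for like. The 10 were Acadm, Acadvl, Acsm1, Cd36, Cpt1a, Echs1, Fabp1, Plin2, Rxra and Slc27a2. Of those tested for expression, Cd36 and Acadm alone passed in limma. Cpt1a, Echs1, Plin2 and Slc27a2 had fold changes above zero without passing, and Acadvl, Acsm1 and Rxra below zero. None of the 33 held the direct repeat AGGTCANAGGTCA (0.0396% of all promoters) or the longer element TCAAGGTCA (0.423%) that estrogen-related receptors bind, both of which contain the shorter one. The core element of TFEB and related factors, CACGTG, was found in 1 gene, Plin2, and in 7.15% of all promoters. A short element is common, and a match is a description of the sequence only.

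Fold changes of the mitochondrial enzymes of the later steps were mostly below zero, and 0 of 5 passed in limma, edgeR or DESeq2 (2 at an unadjusted limma p under 0.05). Hadha, the alpha subunit of the trifunctional protein, was at 970.64 ± 109.8 normalized counts in +/+ and 861.06 ± 149.7 in S74N/+ kidneys (SD, n = 5 each), with a log2 fold change of -0.18 ± 0.13 (SE by limma, adjusted p = 0.39). Its beta subunit Hadhb had 232.7, 281.9, 360.9, 276 and 251.7 normalized counts in +/+ and 228.5, 190.9, 203, 272.9 and 165.2 in S74N/+ replicates 1 to 5. The groups overlapped through S74N/+ replicate 4 (log2 fold change -0.41 ± 0.15, limma adjusted p = 0.11). Hadh, the short-chain hydroxyacyl-CoA dehydrogenase, gave -0.31 ± 0.14 (adjusted p = 0.19) and the thiolase Acaa2 -0.17 ± 0.15 (0.52), whereas the hydratase Echs1 gave 0.16 ± 0.13 (0.48). The 5 genes had a median of -0.18, with 4 below zero.

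Electron transfer genes carry electrons from the dehydrogenases to ubiquinone. All 3 had fold changes above zero, and 0 passed in limma, edgeR or DESeq2 (1 at an unadjusted limma p under 0.05). Etfdh, the ubiquinone oxidoreductase, was at 185.47 ± 43.64 and 235.17 ± 34.18 normalized counts (SD, n = 5 each; log2 fold change 0.36 ± 0.16, limma adjusted p = 0.18), Etfa gave 0.23 ± 0.13 (adjusted p = 0.27) and Etfb 0.04 ± 0.11 (adjusted p = 0.84). Without the 2 libraries richest in fat cell transcripts, Etfb turned to -0.04.

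Enzymes that prepare unsaturated fatty acids included 1 gene at the edge of the threshold. Decr1, the mitochondrial dienoyl-CoA reductase, had 452, 505.6, 515.5, 593 and 606.9 normalized counts in +/+ and 810.4, 615.5, 628.9, 779.1 and 689.8 in S74N/+ replicates 1 to 5. The groups did not overlap, by a small margin. The log2 fold change was 0.40 ± 0.12 (SE, limma adjusted p = 0.0597), and edgeR (adjusted p = 0.0479) and DESeq2 (0.0195) placed it just past the threshold. It fell to 0.33 (adjusted p = 0.11) without the 2 libraries richest in fat cell transcripts. The isomerases Eci1 and Eci2 gave 0.09 ± 0.15 and 0.14 ± 0.15 (SE, adjusted p 0.76 and 0.58).

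Peroxisomal members all had fold changes above zero, with a median of 0.36, although Acaa1a turned to -0.14 without the 2 libraries richest in fat cell transcripts. Of the 4, 0 passed in limma or edgeR and 1 in DESeq2 (2 at an unadjusted limma p under 0.05). Acaa1b, one of the peroxisomal thiolases, had 1170, 1046, 927.3, 1580 and 1193 normalized counts in +/+ and 2224, 1605, 1546, 1999 and 1309 in S74N/+ replicates 1 to 5, so that S74N/+ replicates 3 and 5 lay under +/+ replicate 4. Means were 1183.1 ± 246 and 1736.6 ± 368.6 (SD, n = 5 each), with a log2 fold change of 0.55 ± 0.16 (SE by limma, adjusted p = 0.0503), and leaving out 1 library gave adjusted p from 0.032 to 0.13. DESeq2 placed it past the threshold (adjusted p = 0.0406) and edgeR did not (0.0759).

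Acaa1b and its near-identical copy Acaa1a can share reads, so the split between them is uncertain. Acaa1a gave 0.06 ± 0.16 (SE, limma adjusted p = 0.85). The sum of the pair was 1546.9 ± 286 normalized counts in +/+ and 2122.6 ± 456 in S74N/+ kidneys (SD, n = 5 each; exact two-sided permutation p = 0.0476, where 0.00794 is the smallest p that the design allows). This p is unadjusted and was computed after the values of both genes were known. Ehhadh, the peroxisomal bifunctional enzyme, had 237.2, 162.3, 215, 330.1 and 314.4 normalized counts in +/+ and 264.8, 326.6, 454.9, 403.3 and 355.6 in S74N/+ replicates 1 to 5. Its log2 fold change was 0.54 ± 0.19 (SE, limma adjusted p = 0.0947), and it passed only in the fits without S74N/+ replicate 1, at 0.65 (adjusted p = 0.0262), or without that library and +/+ replicate 3, at 0.60 (adjusted p = 0.0473). Hsd17b4 gave 0.19 ± 0.11 (adjusted p = 0.32).

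Pdk4, the kinase that turns off pyruvate dehydrogenase when fatty acids are burned, was low, at 3.121 to 15.36 normalized counts in +/+ and 0 to 38.23 in S74N/+ kidneys. Its fold change of 0.20 ± 0.76 (SE, limma adjusted p = 0.90) was not resolved.

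Decr1, Ehhadh, Plin2, Hadhb and Etfdh are described in this detail because of their values, which were known when they were chosen.

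**Figure D3:**
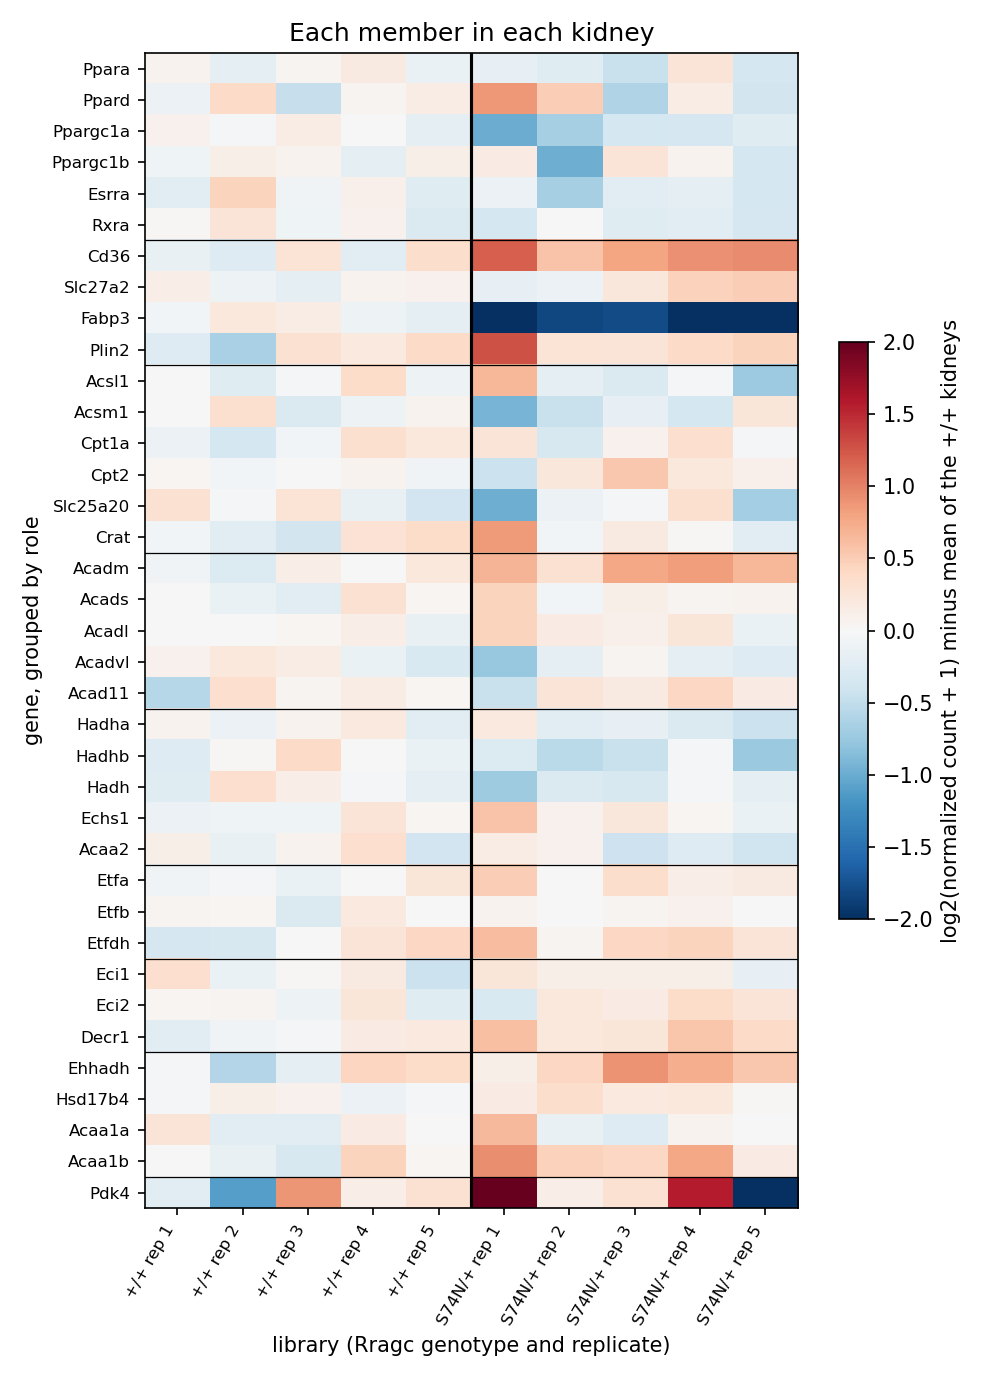
Level of each of the 37 genes in each kidney, as log2 of the normalized count plus 1 minus the mean of the +/+ kidneys (red above, blue below, values past 2 in either direction drawn in the end colour). The rows of Fabp3, Cd36 and Acadm have the same colour across all 5 S74N/+ kidneys, while S74N/+ replicate 1 stands out in many other rows in both directions.

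S74N/+ replicate 1 differed from its group across the pathway. It was the highest or the lowest of the 5 S74N/+ kidneys in 30 of 37 genes (81.1%), highest in 18 and lowest in 12, against 58.7% of all tested genes, and the other 9 libraries were at an end of their group in 24.3% to 54.1% of the 37 genes. Without this library and +/+ replicate 3 the median log2 fold change of the 37 genes was -0.04, with 17 above zero, so the slight upward shift of the list depended on these 2 libraries. The number of genes past the threshold was again 4, now Cd36, Acadm and Ehhadh higher and Fabp3 lower.

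**Figure D4:**
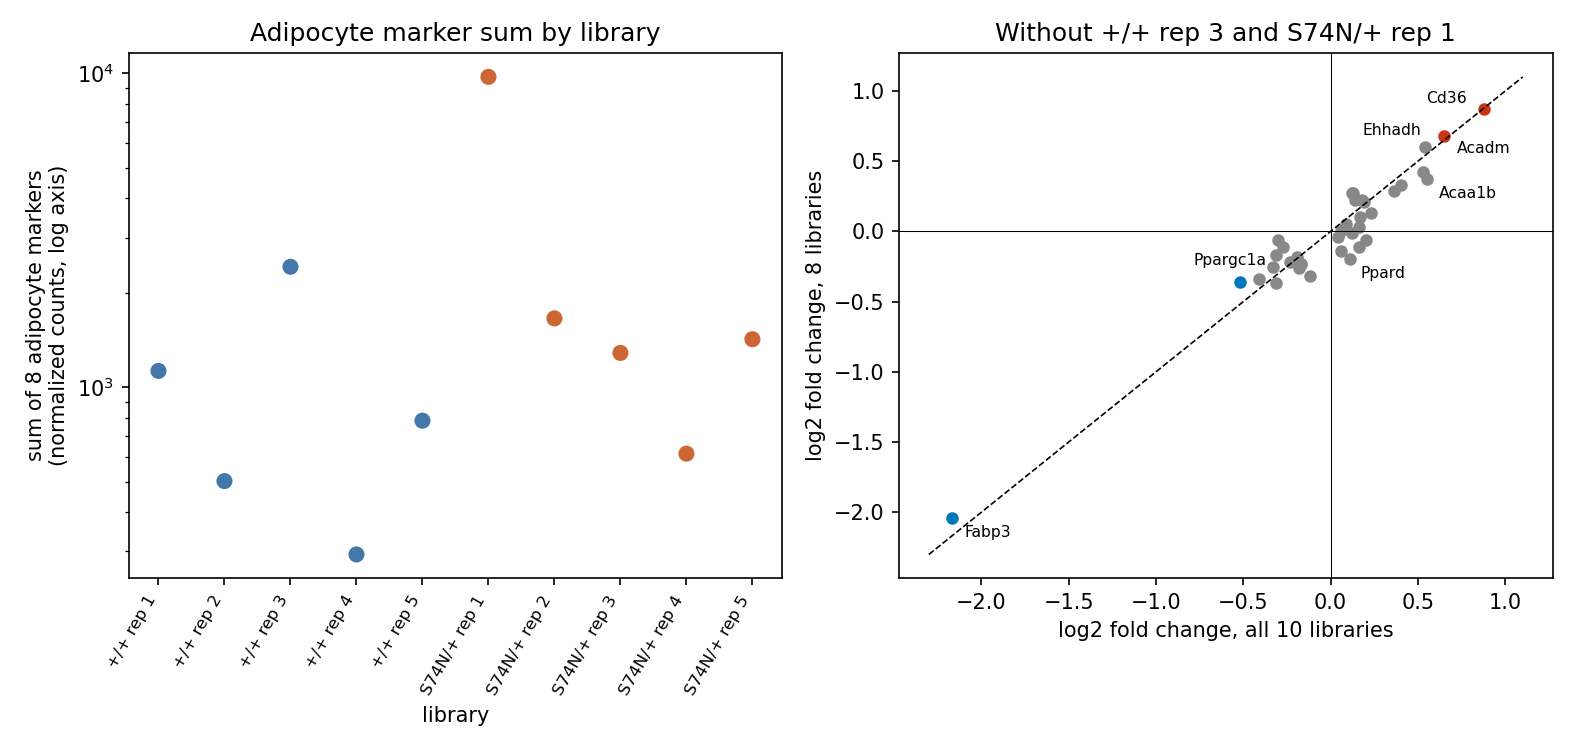
Left, summed normalized counts of 8 adipocyte markers per library on a log axis, +/+ in blue and S74N/+ in orange, with S74N/+ replicate 1 highest at 9753 and +/+ replicate 3 highest of its group at 2420. Right, log2 fold change of the 37 genes with all 10 libraries (horizontal) against that without these 2 (vertical), coloured red where higher and blue where lower past the threshold with all 10, and the dashed line of equality shows that Fabp3, Cd36 and Acadm moved little.

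Scaling was a second influence on the list. With libraries set to equal totals the 37 genes had a median of 0.19 against 0.06 for all genes, and 5 passed, Cd36, Acadm, Decr1 and Acaa1b higher and Fabp3 lower. Over all genes this scaling gave 718 higher and 225 lower, against 457 higher and 341 lower with the size factors of the authors. Fabp3, Cd36 and Acadm passed in the same direction under each of the 3 scalings tried in place of those size factors.

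Genes of fatty acid metabolism outside the list of 38 were read from the same fit, in 9 lists of 145 genes, of which 129 were tested. Of these, 5 were higher and 4 lower in S74N/+ kidneys at an adjusted p under 0.05 (limma), 6.98% in all and close to the 6.03% of all genes, with a median log2 fold change of -0.06. The list of other mitochondrial fatty acid enzymes held 0 of 19 that passed in limma, with 5 at an unadjusted p under 0.05, 1 in edgeR and 2 in DESeq2. Without the 2 libraries richest in fat cell transcripts, Acacb (log2 fold change -1.86, limma adjusted p = 0.000566), Mcee (-0.58, 0.0396) and Pccb (-0.43, 0.038) of this list were lower. Acacb was at 159.5 normalized counts in S74N/+ replicate 1 and 12.63 to 31.99 in S74N/+ replicates 2 to 5, against 50.74 to 150.7 in +/+ kidneys. Of the 9 genes that passed in limma, edgeR called Acss1, Oxct1 and Esrrb. The count was sensitive to single libraries, from 2 without +/+ replicate 1 or +/+ replicate 2 to 16 without S74N/+ replicate 1.

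Acss1 and Oxct1, genes of acetate and ketone body use, held in each fit that left out 1 library. Acss1, the mitochondrial enzyme that activates acetate, was 3.01-fold lower, with 403.9, 338.1, 348.5, 343.2 and 232.8 normalized counts in +/+ and 83.93, 127, 139, 86.57 and 117.6 in S74N/+ replicates 1 to 5. The lowest +/+ kidney was above every S74N/+ kidney (log2 fold change -1.59 ± 0.18, SE, limma adjusted p = 9.4e-05). Oxct1, the enzyme that lets tissues burn ketone bodies, was 1.61-fold lower, with 4567, 3900, 4277, 4886 and 5532 normalized counts in +/+ and 2363, 2240, 3477, 3044 and 3266 in S74N/+ replicates 1 to 5, again without overlap (-0.70 ± 0.14, adjusted p = 0.00995). Of the 6 ketone body enzymes, Oxct1 was the one that passed.

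Peroxisomal genes outside the list held 2 that were higher in limma, 1 of 17 other enzymes and 1 of 16 peroxins, where 3.45% of all genes were higher. With all 10 libraries neither list leaned upward, with 10 of 17 and 9 of 16 genes below zero and medians of -0.09 and -0.04. edgeR and DESeq2 called 0 in both (4 in each at an unadjusted limma p under 0.05). Without the 2 libraries richest in fat cell transcripts, Crot (log2 fold change 0.58, limma adjusted p = 0.0114), Acox2 (0.50, 0.0332), Abcd3 (0.41, 0.0158) and Pex3 (0.54, 0.0258) were higher. Others stayed below zero without passing, such as Hacl1 (-0.73, adjusted p = 0.20) and Acot3 (-0.60, 0.21). Crot, which makes medium-chain acylcarnitines that leave the peroxisome, was at 439.63 ± 34.29 and 625.69 ± 122.2 normalized counts (SD, n = 5 each; log2 fold change 0.49 ± 0.13, limma adjusted p = 0.0401). Pex3, a membrane protein needed to build peroxisomes, was at 121.64 ± 8.57 and 171.57 ± 21.67 (SD, n = 5 each; 0.49 ± 0.13, adjusted p = 0.0396). The groups did not overlap for either gene, yet leaving out 1 library kept the call in 2 of 10 and 1 of 10 fits.

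Targets of PPAR alpha held 2 genes that rose in limma among 11 tested, where 3.45% of all genes were higher. The list split into 6 genes above zero and 5 below, and edgeR called 0 of it and DESeq2 2. Cyp4a10, a fatty acid omega-hydroxylase, was at 1184.9 ± 313.7 and 1967.6 ± 602.4 normalized counts (SD, n = 5 each; log2 fold change 0.71 ± 0.20, limma adjusted p = 0.0481). Vnn1, a pantetheinase that recycles the precursor of coenzyme A, was at 219.49 ± 53.63 and 369.79 ± 75.99 (SD, n = 5 each; 0.76 ± 0.19, adjusted p = 0.0271). The groups overlapped for both, and 3 of 10 and 5 of 10 fits without 1 library kept the call. Without the 2 libraries richest in fat cell transcripts, Vnn1 (0.97, limma adjusted p = 0.000828), Cyp4a10 (0.81, 0.0137) and Cyp4a14 (1.32, 0.0287) were higher. Cyp4a14 was scattered in S74N/+ kidneys, at 24.25 to 451.7 normalized counts, against 66.66 to 110.4 in +/+ kidneys. In the same fit Cyp4a12b, Pdk1, Pdk2 and Aqp7 were below zero (-0.44 to -0.22) without passing. Cyp4a10 belongs to a cluster of near-identical copies, so reads may have been split among them.

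Of 5 tested genes of carnitine supply, Slc22a21, a carnitine transporter, was higher at low counts, with 14.256 ± 4.666 and 36.674 ± 19.44 normalized counts (SD, n = 5 each; log2 fold change 1.22 ± 0.33, limma adjusted p = 0.0394, kept in 3 of 10 fits). Among 15 lipid droplet and lipolysis genes, the droplet protein Plin3 was lower at 201.08 ± 28.51 and 134.29 ± 32.01 (SD, n = 5 each; -0.60 ± 0.16, adjusted p = 0.0402, kept in 2 of 10). Among 22 other regulators, Esrrb, an orphan receptor related to ERR alpha, was lower at 51.295 ± 12.12 and 23.851 ± 11.73 (SD, n = 5 each; -1.16 ± 0.29, adjusted p = 0.0285, kept in 5 of 10). Among 18 genes of uptake and activation outside the list, Acss1 was the 1 that passed in limma, while edgeR and DESeq2 called 2 each. The added gene was Acsm3, a medium-chain acyl-CoA synthetase (limma log2 fold change 0.84, adjusted p = 0.10, edgeR adjusted p = 0.0491, DESeq2 0.0123), named after its values were seen.

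**Figure D5:**
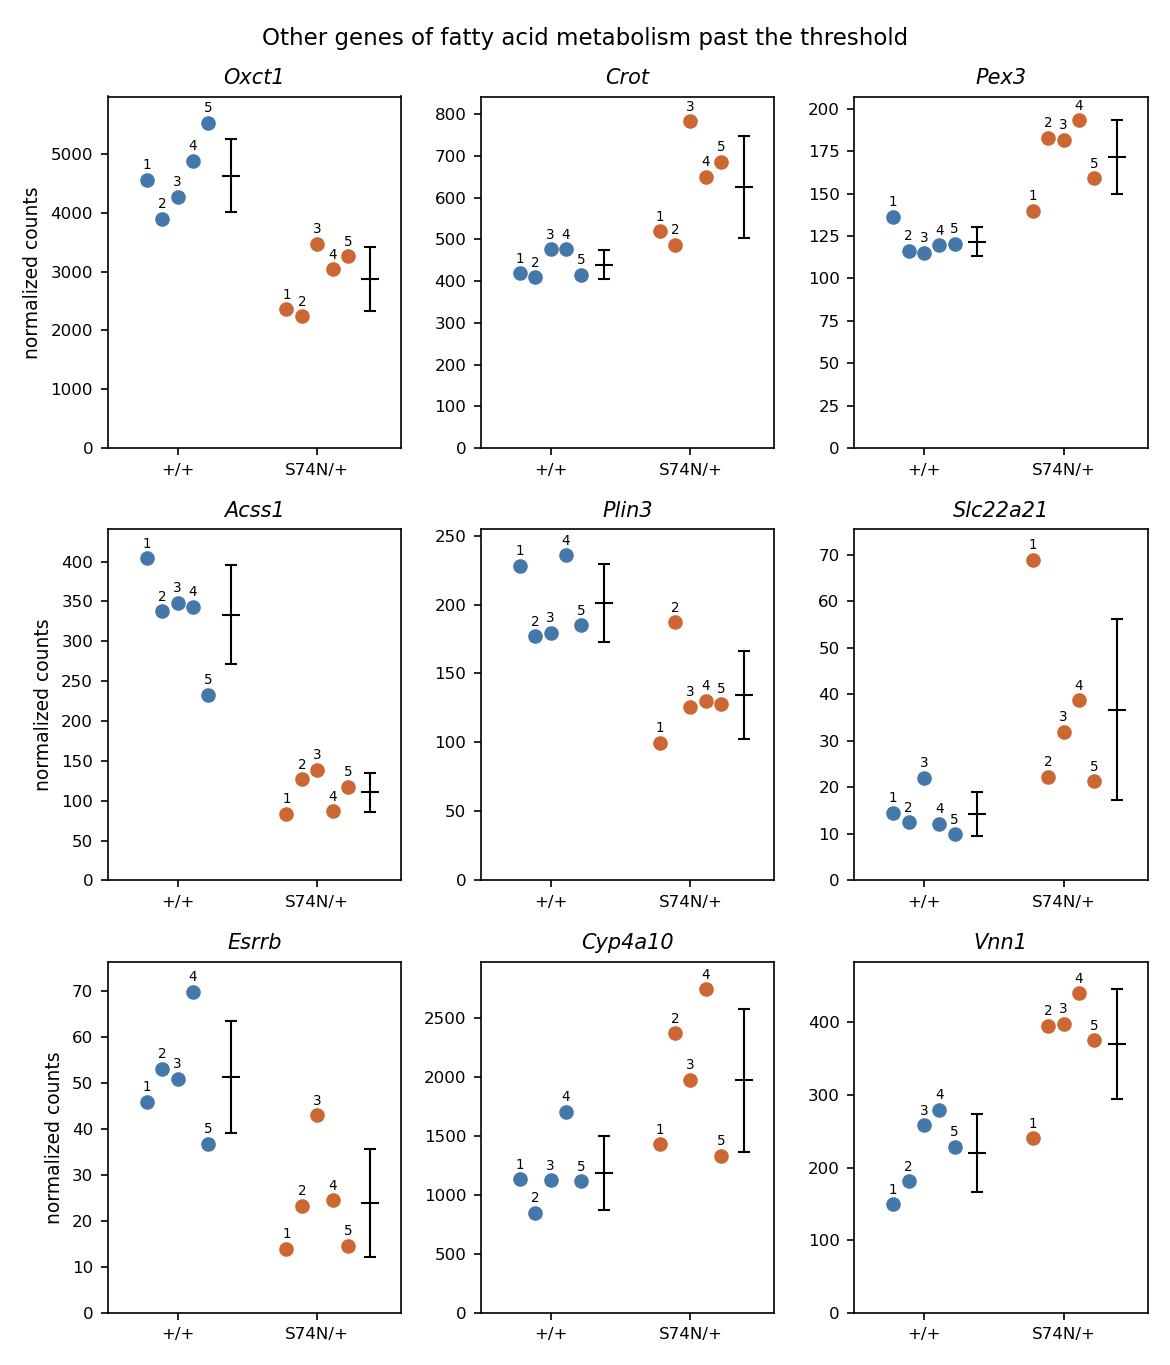
Normalized counts per kidney (vertical axis from 0) of the 9 further genes of fatty acid metabolism that passed the threshold, +/+ in blue and S74N/+ in orange, with replicate numbers above the points and mean and SD beside each group. The groups are apart for Oxct1, Crot, Pex3 and Acss1 and overlap for Plin3, Slc22a21, Esrrb, Cyp4a10 and Vnn1.

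Cell markers were read beside these results, since cells of the proximal tubule rely most on the pathway. Against 2.58% of all genes lower, 2 of 15 proximal tubule markers fell and none rose by the limma test. They were Slc5a2 (log2 fold change -1.05 ± 0.14, SE, adjusted p = 0.000476), a glucose transporter of its first segment, and Gatm (-1.03 ± 0.14, adjusted p = 0.000619), an enzyme of creatine synthesis, both named after their values were seen. Lrp2 and Cubn, the endocytic receptors of this cell, and the phosphate transporter Slc34a1 gave 0.19, -0.22 and -0.17 (adjusted p from 0.40 to 0.44). Of 6 fibroblast markers 3 rose (Col1a1, Col1a2 and Pdgfra, named after their values were seen), where 3.45% of all genes were higher. The other 3 did not pass, among them Pdgfrb at -0.13. The summed level of the 6 was 805 to 1403 normalized counts in +/+ and 1313 to 2188 in S74N/+ kidneys. Of the 7 adipocyte markers that could be tested, 0 passed in limma, edgeR or DESeq2 (1 at an unadjusted limma p under 0.05). The part of cell makeup in the changes of the pathway was not tested.

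Together the 37 genes took 0.483% to 0.551% of all normalized counts in +/+ kidneys and 0.557% to 0.637% in S74N/+ kidneys. The sum was 24105 to 27873 in +/+ and 24900 to 30094 in S74N/+ kidneys, and the library totals were 4473981 to 5087152. The shares did not overlap between the groups, whereas the sums did. Both weigh abundant genes most, above all Slc27a2, which did not pass (means 4906.1 in +/+ and 5648.6 in S74N/+ kidneys). They therefore say little of most of the 37 genes. Library totals, the base of the shares, were 4576639 to 5087152 in +/+ and 4473981 to 4847611 in S74N/+ kidneys. They include genes of the mitochondrial genome, which took 35.8% to 38% in +/+ and 33.8% to 36.8% in S74N/+ kidneys. The gap between the shares thus cannot be read as a change of the 37 genes alone. Shares on a base without the mitochondrial genome were not computed.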

How the data were processed

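RNA of 10 whole kidneys was made into 3′ mRNA libraries (QuantSeq, oligo-dT primed). The authors checked reads with FastQC 0.11.7, aligned them to GRCm39 with TopHat2 2.0.10, Bowtie 1.0.0 and SAMtools 0.1.19, and counted sense-strand reads per gene with HTSeq 0.6.1, per the submitters' processing notes and the study's methods. The deposited signal values are normalized counts, that is counts divided by a size factor per library, as in DESeq2. Because these are not raw counts, log2(value + 1) of genes with at least 5 normalized counts in at least 5 samples (13236 of 13299) was tested with limma 3.58.1 in R 4.3.3 (genotype as only term, eBayes variance trend, two-sided, Benjamini-Hochberg over all tested genes, threshold 0.05). This scale understates the change of low genes. Values of all 10 columns were whole multiples of 1 step per library (100% of values whole). For +/+ replicate 5 and S74N/+ replicate 3 the step was too close to 1 for the check of recovered reads. edgeR 4.0.16 and DESeq2 1.42.0 were run on the reads of the other 8. The scripts were tested on simulated data. Replicates were numbered in accession order.

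All listed genes are accounted for by role. Those past the threshold are given by sample, and of the others the regulators, Cpt1a, Cpt2, Hadha and Acaa1b by group. Of the wider lists, genes past the threshold (up to 3 per list) are named, and up to 3 markers per cell type in list order. Some genes of these lists are not reported here. Members, lists and tests were chosen with earlier results of these data known. Alternatives were other pseudocounts, filters, scalings and eBayes settings, a term for the number in the sample titles, libraries left out and the count models.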

Additional observations from a re-analysis of the deposited data

Results flagged for a closer look

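In 4 of 76 groups of 5 kidneys (each gene of the list and the adipocyte sum, per genotype) 1 library stood far from the others of its group. A rate of 1 in 20 would give 3.8. The groups share the same libraries and are not independent, so nothing about chance was read from these counts. S74N/+ replicate 1 accounted for 3 of the 4. Its sum of adipocyte markers was 9753 normalized counts against 614 to 1657 in the other S74N/+ kidneys, Plin2 was at 784.3 against 390.9 to 441.1, and Crat, carnitine acetyltransferase, was at 412.2 against 195.3 to 257.9. In +/+ replicate 5, Etfa, a subunit of the electron transfer flavoprotein, was at 249.7 against 192 to 208.7 in the other +/+ kidneys.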

How the results depend on the processing

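Across 24 alternative fits the count of listed genes past the threshold ran from 3 to 6, against 4, and from 3 to 4 when 1 library was left out. Fabp3, Cd36 and Acadm passed in all 24. The call of Ppargc1a was lost in 12 of them, and Decr1, Acaa1b or Ehhadh passed in some. Genes of the wider lists that passed numbered 9, but 2 without the variance trend, 5 in edgeR and in limma on the same 8 samples, 17 without the 2 libraries richest in fat cell transcripts, and 2 to 16 when 1 library was left out. Besides +/+ replicates 1 and 2 and S74N/+ replicate 1, the omission of +/+ replicate 3 (4), +/+ replicate 4 (5), +/+ replicate 5 (5) or S74N/+ replicate 3 (5), 4 (3) or 5 (4) moved it by over 1.5 times. Genes past the threshold over the whole table numbered 798, but 391 without the variance trend, 1402 in DESeq2 and 311 to 902 when 1 library was left out (368 without +/+ replicate 1, 311 without +/+ replicate 2, 383 without +/+ replicate 4 and 371 without S74N/+ replicate 5). The cause of these differences was not tested.

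Directions turned in 11 genes, none of them past the threshold. Without the 2 libraries richest in fat cell transcripts (chosen after seeing the data), log2 fold changes were -0.20 for Ppard, -0.11 for Crat, -0.01 for Acads (at most 0.20 with 1 library left out), -0.04 for Etfb, -0.14 for Acaa1a and -0.06 for Pdk4. Eci1 gave -0.02 in edgeR, -0.03 in DESeq2 and -0.03 in limma on the same 8 samples. With 1 library left out, ranges that crossed zero were -0.08 to 0.29 for Ppard, -0.27 to 0.03 for Ppargc1b, -0.31 to 0.04 for Acsl1 (-0.32 without both libraries), -0.02 to 0.16 for Cpt1a, -0.02 to 0.25 for Crat, -0.03 to 0.25 for Acad11 (0.27 without both), -0.03 to 0.09 for Etfb, -0.02 to 0.17 for Eci1, -0.09 to 0.14 for Acaa1a and -0.28 to 1.04 for Pdk4. Pdk4 was low and its direction was not resolved. Whether depth (4488493 to 5797251 reads in the 8 libraries with recovered reads) limited this was not tested. No paired analysis was run, because the labels give no pairing of kidneys between the genotypes.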
